A study of Mus musculus with 6 samples.

Results

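Osgin1 and 9 genes of the NRF2 antioxidant pathway were examined in mouse liver, to ask whether Osgin1 moved together with the NRF2 target genes when the bile acid receptor FXR carried a tyrosine-to-phenylalanine change. The 10 genes were Osgin1, Nfe2l2, Keap1, Nqo1, Gclc, Gclm, Hmox1, Txnrd1, Srxn1 and Ephx1. They were chosen by name out of 23284 genes in the count files, with earlier results of the same comparison known, so their own differences between the groups are a description: no p-value is given for them, and whether one of them passed the rule for calls is stated but read as no evidence. All 10 were among the 12453 genes with enough reads to be tested, and none shared exon bases with another gene.

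RNA was sequenced from 6 livers. Male mice with a floxed FXR gene received, at 8 weeks of age, an adeno-associated virus (AAV8) carrying Cre recombinase together with a second one carrying FXR. Both viruses used the TBG promoter, which is active in hepatocytes, so by design Cre was to remove the mouse receptor from hepatocytes in both groups and leave that of the intestine in place. The second virus encoded unaltered receptor in the 3 livers called FXR-WT and the receptor that cannot be phosphorylated at tyrosine 67 in the 3 livers called Y67F-FXR. All mice ate chow with 0.5% cholic acid, a primary bile acid, for 6 h before the liver was taken 4 weeks after injection.

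NRF2, the product of Nfe2l2, is a transcription factor that switches on genes against oxidants and reactive chemicals. KEAP1 holds it in the cytoplasm and hands it to the proteasome until oxidants or electrophiles modify KEAP1, after which NRF2 enters the nucleus, pairs with a small MAF protein and binds antioxidant response elements. Its classical targets make glutathione (Gclc, Gclm), reduce quinones (Nqo1) and oxidised thiols (Txnrd1, Srxn1), break down heme (Hmox1) and hydrolyse epoxides (Ephx1). Osgin1 encodes an oxidative stress induced growth inhibitor, known as a target of NRF2 in several cell types and as a bile acid and FXR responsive gene in liver.

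The element that NRF2 and small MAF proteins bind is short, and its core letters were searched in RefSeq promoters on GRCm38.p6 (250 bases before to 50 after each start site) as TGACNNNGC on both strands. Of 32851 promoters, 12.4% held the core. An entry was given for 8 of the 10 genes, with 10 promoters in all, 3 of them of Txnrd1. The core was found in 4 of these 10 promoters, those of Nfe2l2, Gclm and Srxn1 and 1 of Txnrd1. These matches are shown with the core in capitals because they are the stretches in which the regulator itself and 3 targets share these letters. All are printed from the minus strand.
Nfe2l2, chr2:75704885-75704913, 240 bases upstream of the start: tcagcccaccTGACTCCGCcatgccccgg
Gclm, chr3:122245413-122245441, 134 bases upstream: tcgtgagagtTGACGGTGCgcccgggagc
Txnrd1, chr10:82859104-82859132, 92 bases upstream of 1 of its 3 start sites: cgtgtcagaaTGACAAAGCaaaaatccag
Srxn1, chr2:152105542-152105570, 28 bases downstream: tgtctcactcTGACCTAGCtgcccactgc

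The core as spelled was not found in the Osgin1 window. Other spellings of the element were not searched, so one with another letter at a fixed place, or outside the window, would be missed. The inverted repeat on which FXR and RXR sit was searched as GTCANTGAC on both strands, where each match to one motif can overlap a match to the other because both hold TGAC. It was found in 0.387% of all promoters and in none of those of the 10 genes. The 250 bases before the Osgin1 start are shown because Osgin1 is the gene with the largest difference between the groups among the 10. They contained 58.4% G and C, against a median of 52.4% over all promoters.
Osgin1, chr8:119436897-119437146, plus strand, GRCm38.p6: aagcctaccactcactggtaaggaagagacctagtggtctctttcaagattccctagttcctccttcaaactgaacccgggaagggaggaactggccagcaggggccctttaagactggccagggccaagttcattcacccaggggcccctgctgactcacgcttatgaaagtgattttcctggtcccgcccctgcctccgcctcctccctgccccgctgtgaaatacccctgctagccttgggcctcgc

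The libraries held 19551113 to 22053320 reads assigned to genes, and the 10 most abundant genes took 18.4 to 20.4% of them. Levels are counts per 1000000 assigned reads (CPM), scaled between libraries by trimmed means of M values (TMM). Reads of Nr1h4, the mouse FXR gene that Cre targets, were present in every liver, at 187 ± 30.2 CPM in FXR-WT (SD, n = 3) and 175 ± 9.84 CPM in Y67F-FXR (SD, n = 3). These gene counts do not separate undeleted mouse receptor, other liver cells and the transgene, so removal of the mouse receptor is not shown by these libraries. Hepatocyte markers summed to 94580 to 110000 CPM in FXR-WT and 93500 to 115500 CPM in Y67F-FXR, and these ranges overlapped. None of the 7 was at 0 over all livers together. The summed level of the 5 neutrophil markers found, of 6 listed, was lower in every Y67F-FXR liver, at 0.621 to 2.35 CPM against 2.77 to 5.77 CPM. Few reads stood behind that sum: only 2 of the 5 had enough reads to be tested. S100a8, for example, had 5, 3 and 1 reads in Y67F-FXR 1, 2 and 3. The summed level of the 6 stellate cell markers was also lower in every Y67F-FXR liver, at 115 to 164 CPM against 167.5 to 180.5 CPM. The part of neutrophils and stellate cells in the values that follow was not tested. In bulk liver, fewer cells of a type and less RNA per cell cannot be told apart.

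A gene was called when edgeR's quasi-likelihood test gave a Benjamini-Hochberg adjusted p under 0.05 over all tested genes and a fitted fold change over 1.5. By this rule 121 genes, or 0.972%, were called, of which 53 (0.426%) were lower and 68 (0.546%) were higher in Y67F-FXR. When libraries were scaled by their totals alone, the split was 68 lower and 52 higher. With 3 livers against 3, an exact two-sided permutation test of a single value cannot give a p below 0.1.

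Osgin1 was 3.78-fold lower in Y67F-FXR, the largest difference among the 10 genes. Its level was 294, 205 and 367 CPM in FXR-WT 1, 2 and 3, and 51.6, 90.3 and 87.2 CPM in Y67F-FXR 1, 2 and 3. The groups did not overlap: the lowest FXR-WT liver stood above the highest Y67F-FXR liver, and within FXR-WT the third liver was the highest while within Y67F-FXR the first was the lowest. Group means were 288.5 ± 81.1 CPM (SD, n = 3) and 76.4 ± 21.5 CPM (SD, n = 3), and the fitted log2 fold change was -1.92 with a standard error of 0.28. These values rest on 1061 to 8485 reads per library over 1961 bases of exon. The gene lies at chr8:121961062-121970156 of mm9, on the plus strand.

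Osgin1 was the 1 called gene of the 10. Since it was chosen with this contrast known, nothing is read from that count beside the background of 0.972%. It was no longer called without FXR-WT 1, without FXR-WT 3, without Y67F-FXR 1 or without Y67F-FXR 3, where the log2 fold change was -1.91, -1.71, -1.70 and -2.02, and it stayed called without FXR-WT 2 or without Y67F-FXR 2, at -2.11 and -2.07.

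**Figure D1:**
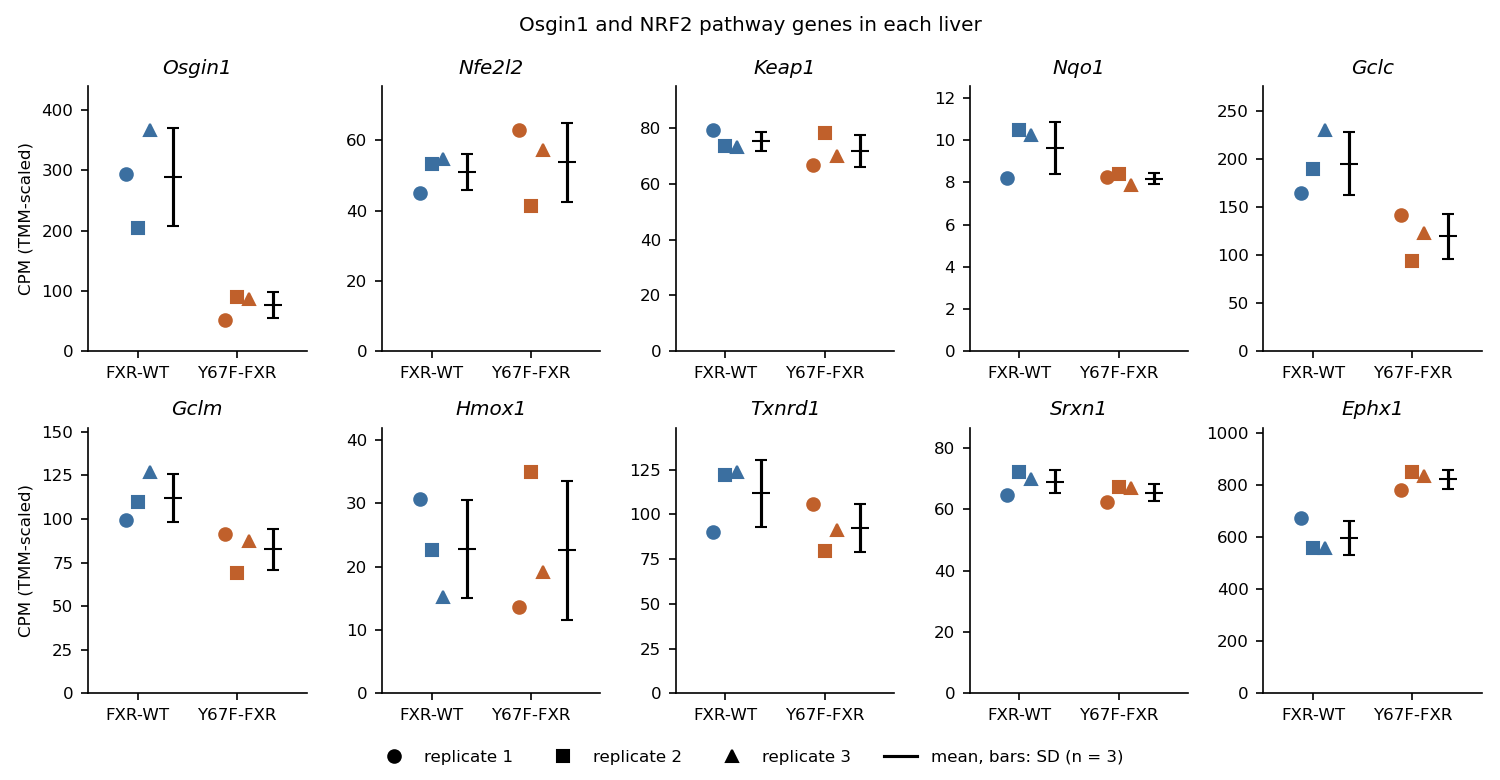
Level of the 10 genes in each liver in TMM-scaled CPM, on axes that start at 0; coloured symbols are livers by replicate number, black marks are means with SD (n = 3). Osgin1, Gclc and Gclm are lower in every Y67F-FXR liver than in any FXR-WT liver, Ephx1 is higher, and the other 6 genes overlap.

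For the regulator and its inhibitor, the difference between the groups was smaller than its standard error. Nfe2l2 stood at 44.98, 53.3 and 54.6 CPM in FXR-WT 1, 2 and 3 and at 62.8, 41.2 and 57.2 CPM in Y67F-FXR 1, 2 and 3. The Y67F-FXR livers included both the highest and the lowest of the 6, so the groups overlapped. The fitted log2 fold change was 0.08 with a standard error of 0.18, and it turned negative without FXR-WT 1 (-0.01) or without Y67F-FXR 1 (-0.05). Nfe2l2 lies at chr2:75513576-75542698 of mm9, on the minus strand, and its level of mRNA does not report how much NRF2 protein is in the nucleus, since KEAP1 acts on the protein.

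Keap1, the inhibitor that carries NRF2 to degradation, was at 79.1, 73.3 and 73.2 CPM in FXR-WT 1, 2 and 3 and at 66.8, 78.0 and 69.98 CPM in Y67F-FXR 1, 2 and 3. The second Y67F-FXR liver lay within the FXR-WT range and the other Y67F-FXR livers below it. Means of 75.2 ± 3.38 CPM and 71.6 ± 5.79 CPM (SD, n = 3 each) gave a log2 fold change of -0.07 with a standard error of 0.12, and this fold change ran from -0.15 without Y67F-FXR 2 to -0.02 without Y67F-FXR 1. Keap1 lies at chr9:21034174-21043776 of mm9, on the minus strand.

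Both subunits of glutamate-cysteine ligase, the enzyme that limits the rate of glutathione synthesis, were lower in each Y67F-FXR liver than in any FXR-WT liver. The catalytic subunit Gclc was at 165, 189.8 and 229.6 CPM in FXR-WT 1, 2 and 3, and at 141, 94.2 and 123 CPM in Y67F-FXR 1, 2 and 3. Means were 195 ± 32.7 CPM and 119.5 ± 23.7 CPM (SD, n = 3 each), with a log2 fold change of -0.71 with a standard error of 0.19. The modifier subunit Gclm was at 99.5, 109.9 and 127 CPM in FXR-WT 1, 2 and 3, and at 91.2, 69.2 and 87.2 CPM in Y67F-FXR 1, 2 and 3.

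The distance between the groups was small for Gclm, whose lowest FXR-WT liver was 99.5 CPM against 91.2 CPM in the highest Y67F-FXR liver. Its means were 112 ± 13.8 CPM and 82.6 ± 11.7 CPM (SD, n = 3 each), with a log2 fold change of -0.44 and a standard error of 0.15. Gclc and Gclm ranked the livers alike within each group, with FXR-WT 3 the highest and FXR-WT 1 the lowest of their group, and Y67F-FXR 1 the highest and Y67F-FXR 2 the lowest of theirs. Osgin1 did not share that order, since Y67F-FXR 1 was its lowest liver. Gclc lies at chr9:77602342-77642296 and Gclm at chr3:121948510-121969566 of mm9, both on the plus strand.

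Gclc passed the fold minimum but was not called by edgeR, and it was called, beside Osgin1, by DESeq2 or once a trend of counts with gene length had been removed from each library. That trend stood, for exons as long as those of Gclc (3427 bases), at -0.07, 0.003 and 0.05 on the log2 scale in FXR-WT 1, 2 and 3 and at 0.08, -0.09 and 0.02 in Y67F-FXR 1, 2 and 3. It ordered the livers within each group as Gclc did, whereas for exons as long as those of Gclm (1470 bases) the trend had the opposite order, from 0.10 in FXR-WT 1 to -0.09 in FXR-WT 3 and from 0.11 in Y67F-FXR 2 to -0.13 in Y67F-FXR 1. Over the 6 fits that each left out 1 liver, the log2 fold change of Gclc ran from -0.84 to -0.57 and that of Gclm from -0.53 to -0.34.

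The reductases showed smaller differences. Nqo1, the quinone reductase often used as the reporter of NRF2 activity, was at 8.21, 10.5 and 10.2 CPM in FXR-WT 1, 2 and 3 and at 8.26, 8.40 and 7.88 CPM in Y67F-FXR 1, 2 and 3. The first FXR-WT liver lay among the Y67F-FXR livers, so the groups overlapped. Nqo1 was the least abundant of the 10 genes, with 154 to 237 reads per library, and its log2 fold change was -0.24 with a standard error of 0.15. It lies at chr8:109912125-109927105 of mm9, on the minus strand.

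Txnrd1, the cytosolic thioredoxin reductase, was at 90.35, 122 and 124 CPM in FXR-WT 1, 2 and 3 and at 106, 79.5 and 91.4 CPM in Y67F-FXR 1, 2 and 3. Here too the first FXR-WT liver fell into the Y67F-FXR range, and the log2 fold change was -0.28 with a standard error of 0.17. Srxn1, sulfiredoxin, which repairs overoxidised peroxiredoxins, was at 64.7, 72.0 and 69.95 CPM in FXR-WT 1, 2 and 3 and at 62.2, 67.05 and 66.7 CPM in Y67F-FXR 1, 2 and 3. Its 6 livers were the closest together of the 10 genes relative to their level, and its log2 fold change was -0.08 with a standard error of 0.11, and this fold change ran from -0.12 without FXR-WT 1 to -0.04 without Y67F-FXR 1. Txnrd1 lies at chr10:82296696-82360469 and Srxn1 at chr2:151931466-151937089 of mm9, both on the plus strand.

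Hmox1, the inducible heme oxygenase, differed more among livers of one group than between the groups. It was at 30.7, 22.6 and 15.2 CPM in FXR-WT 1, 2 and 3 and at 13.7, 34.9 and 19.1 CPM in Y67F-FXR 1, 2 and 3. The means of 22.8 ± 7.77 CPM and 22.6 ± 11.02 CPM (SD, n = 3 each) were almost equal, and the log2 fold change was -0.02 with a standard error of 0.37. Its sign changed with the livers used: the value was 0.26 without FXR-WT 1, 0.24 without Y67F-FXR 1 and 0.10 without Y67F-FXR 3. Hmox1 lies at chr8:77617517-77624492 of mm9, on the plus strand.

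Macrophages that clear red cells, such as the Kupffer cells of the liver, are a known site of Hmox1 expression, and 10 of their markers were followed beside it. Summed, these markers stood at 346, 279 and 225 CPM in FXR-WT 1, 2 and 3 and at 188, 521 and 302 CPM in Y67F-FXR 1, 2 and 3. The second Y67F-FXR liver was the highest and the first the lowest in both measures, and within each group the livers had the same order. That order was not particular to macrophage markers, since the summed hepatocyte markers had it too, at 110000, 98410 and 94580 CPM in FXR-WT 1, 2 and 3 and at 93500, 115500 and 100800 CPM in Y67F-FXR 1, 2 and 3. None of the 10 markers was at 0 over all livers together. Of them edgeR called 0, beside 0.972% of all tested genes, and DESeq2 called 0, beside 3.17%. At an unadjusted p under 0.05 there were 0, beside 13.4% of all tested genes. The trend with gene length for exons as long as those of Hmox1 (1576 bases) had that order too, within -0.11 to 0.08 on the log2 scale. Clec4f, a defining Kupffer cell gene, ran from 51.5 to 79.7 CPM in FXR-WT and from 39.1 to 88.5 CPM in Y67F-FXR. Marco had the highest log2 fold change of the 10 markers, 1.63 with a standard error of 0.73. It was at 13.6, 8.63 and 5.40 CPM in FXR-WT 1, 2 and 3 and at 6.85, 62.2 and 16.5 CPM in Y67F-FXR 1, 2 and 3. The part of any of these cells in the Hmox1 values was not tested.

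**Figure D2:**
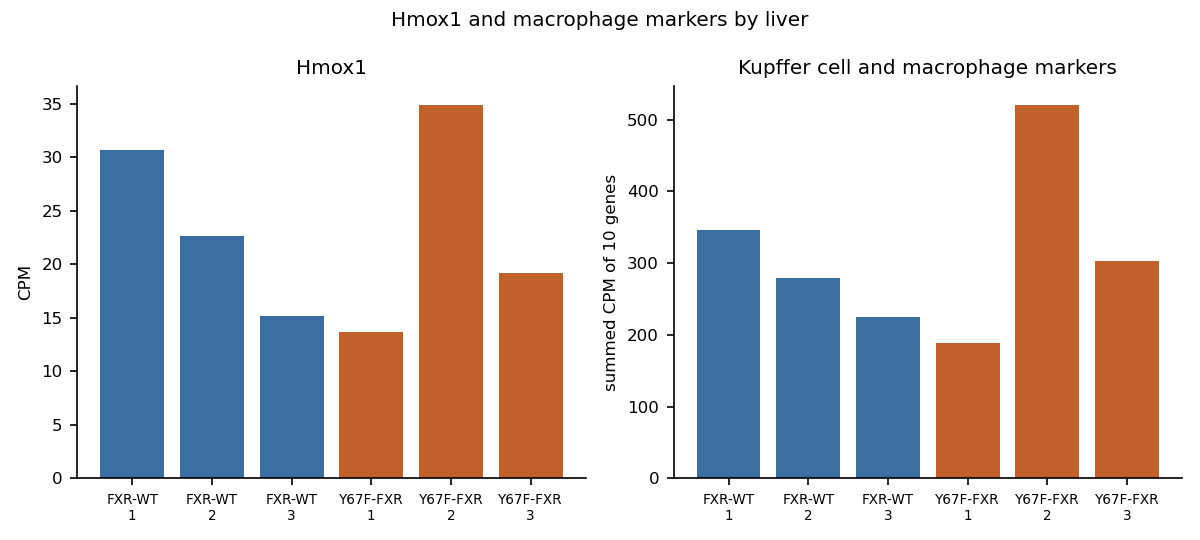
Hmox1 in CPM (left) and the summed CPM of 10 Kupffer cell and macrophage markers (right) in each liver, as bars from 0. The livers have the same order within each group in both panels, with 34.9 CPM of Hmox1 and 521 CPM of markers in Y67F-FXR 2.

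Ephx1, the microsomal epoxide hydrolase, was the 1 NRF2 target of the 7 with a higher level in Y67F-FXR. It was at 672, 559 and 559 CPM in FXR-WT 1, 2 and 3 and at 781, 848.5 and 833.5 CPM in Y67F-FXR 1, 2 and 3. All Y67F-FXR livers stood above all FXR-WT livers, with the first FXR-WT liver the nearest. Means were 597 ± 65.0 CPM and 821 ± 35.5 CPM (SD, n = 3 each), with a log2 fold change of 0.46 with a standard error of 0.13, which lay between 0.39 and 0.55 in all other fits. The gene lies at chr1:182919687-182947626 of mm9, on the minus strand.

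Across the 10 genes, 8 had a fitted value below 0 and 2 above it, with a median log2 fold change of -0.16 against 0.01 over all tested genes. The groups did not overlap for 4 of the 10, Osgin1, Gclc, Gclm and Ephx1, beside 20.6% of all tested genes. The 7 NRF2 targets alone had a median of -0.24, with 6 fitted below 0. No library scaling that was tried turned the sign of any of the 10, and library totals moved the median of all tested genes to -0.06.

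**Figure D3:**
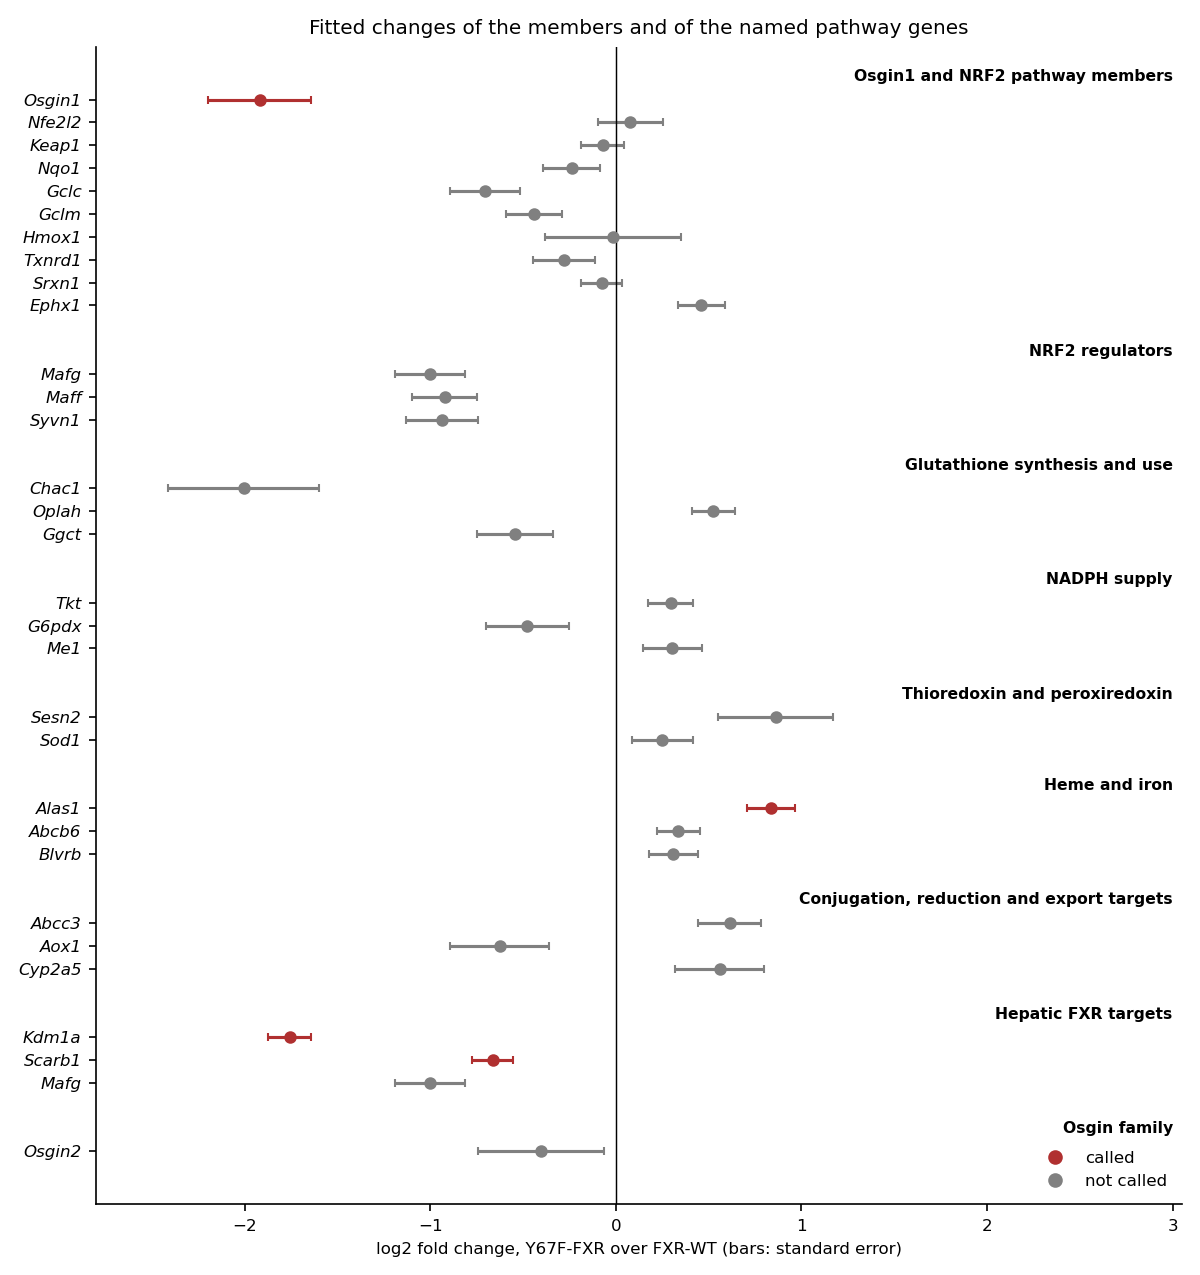
Fitted log2 fold change of Y67F-FXR over FXR-WT for the 10 genes and for the named genes of each list, with standard errors; red points are called genes. Among the 10, Osgin1 lies at -1.92 and the others between -0.71 and 0.46.

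To set Osgin1 against the targets within each liver, the mean log2 CPM of the 7 targets (Nqo1, Gclc, Gclm, Hmox1, Txnrd1, Srxn1 and Ephx1) was subtracted from the log2 CPM of Osgin1. The difference was 1.93, 1.32 and 2.18 in FXR-WT 1, 2 and 3 and -0.42, 0.36 and 0.31 in Y67F-FXR 1, 2 and 3. Osgin1 thus stood above the target mean in every FXR-WT liver, and close to it or below it in the Y67F-FXR livers. The target mean itself was 6.32 ± 0.04 in FXR-WT and 6.13 ± 0.01 in Y67F-FXR (SD, n = 3 each), a difference of -0.19.

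For Osgin1 the same subtraction of group means gave -1.92, from 8.13 ± 0.42 to 6.21 ± 0.45 on the log2 CPM scale (SD, n = 3 each). The gap between Osgin1 and the target mean therefore differed by -1.73 between the groups. This value ran from -1.97 to -1.48 over the alternatives tried for it. Most of the difference of Osgin1 was not shared by the mean of these targets. The mean combines targets of both directions, Gclc at -0.71 and Ephx1 at 0.46, and it weights each gene equally whatever its level.

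**Figure D4:**
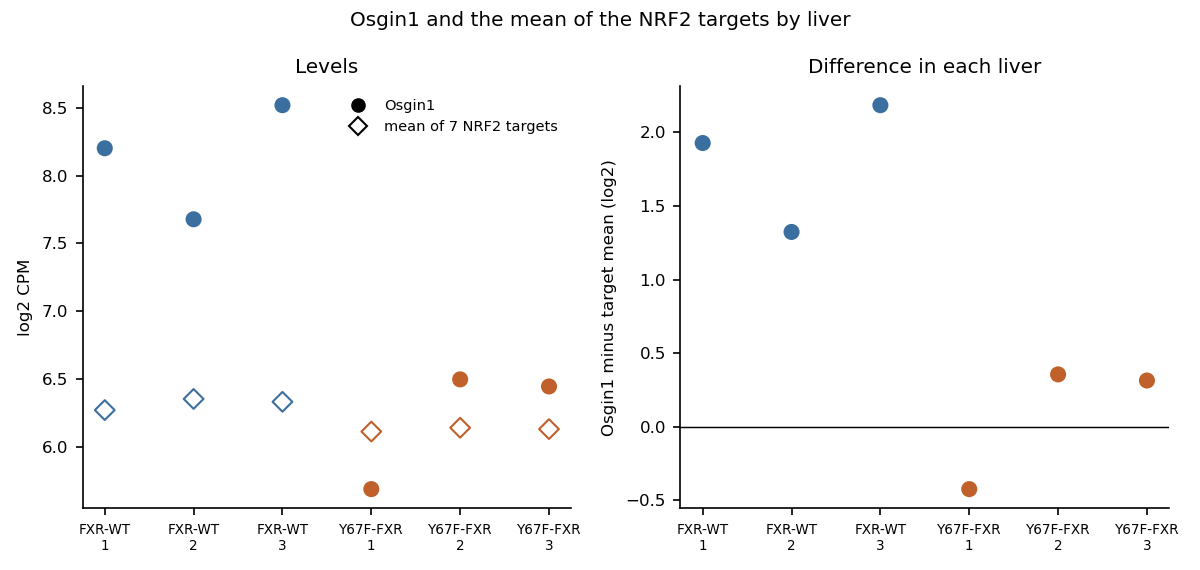
Log2 CPM of Osgin1 (filled) and the mean over 7 NRF2 targets (open) in each liver at left, and Osgin1 minus that mean at right. The target mean stays near 6.32 in FXR-WT and 6.13 in Y67F-FXR, while the difference goes from 1.32 or more in FXR-WT to 0.36 or less in Y67F-FXR.

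Levels can be ordered between genes once divided by exon length. In FXR-WT, Ephx1 was the highest at 358 CPM per kilobase, followed by Osgin1 at 147, Gclm at 76.2, Gclc at 56.8, Txnrd1 at 27.9 and Srxn1 at 26.7 CPM per kilobase. Nfe2l2 at 20.6, Keap1 at 16.8, Hmox1 at 14.5 and Nqo1 at 6.21 CPM per kilobase came last. The livers of neighbours overlapped for Txnrd1 and Srxn1 and for Keap1 and Hmox1.

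In Y67F-FXR the order on this scale began with Ephx1 at 493 CPM per kilobase and Gclm at 56.2 CPM per kilobase. Next came Osgin1 at 38.9 CPM per kilobase, with livers that overlapped those of Gclc at 34.9 CPM per kilobase. From Srxn1 at 25.3 through Txnrd1 at 23.0, Nfe2l2 at 21.8, Keap1 at 16.02 and Hmox1 at 14.3 CPM per kilobase each gene overlapped the next, and Nqo1 was again the lowest at 5.27 CPM per kilobase. Osgin1 thus stood above Gclm in FXR-WT and below it in Y67F-FXR, and its livers overlapped those of Gclc in Y67F-FXR but not in FXR-WT.

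To see which genes had a profile like that of Osgin1, each gene with a mean of at least 1 CPM was centred on its own mean over the 6 livers and its root mean square distance from Osgin1 was taken on the log2 CPM scale. The median distance over 11513 genes was 1.05. The nearest was Clec2h, a C-type lectin gene, at 0.26. Gdf15, a stress-induced secreted factor, stood at 0.32. Kdm1a, which encodes the histone demethylase LSD1, and Creld2, a gene of the endoplasmic reticulum, were both at 0.35.

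None of these genes was an NRF2 target of the 7. Their log2 fold changes were -1.75 for Clec2h, -2.27 for Gdf15, -1.76 for Kdm1a and -2.06 for Creld2, and since the measure selects genes with such a difference, they are given as a description. Gclc was the nearest of the NRF2 genes, in place 315 with a distance of 0.76, and Gclm followed in place 754 with 0.85. Nqo1, Txnrd1, Keap1, Srxn1, Hmox1 and Nfe2l2 held places 2034 to 7527, and Ephx1, which was higher in Y67F-FXR, held place 10334.

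The wider pathway was described with lists of genes drawn up by known role. Of 72 tested NRF2-linked genes outside the 10, edgeR called 0 lower and 1 higher, beside 0.426% and 0.546% of all tested genes. Their median log2 fold change was 0.09, against 0.01 over all tested genes. At an unadjusted p under 0.05, a level reached by 13.4% of all tested genes, 6 were lower and 11 higher, and DESeq2 called 6, beside 3.17% of the genes to which it gave an adjusted p.

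Among 13 other regulators of NRF2, edgeR called 0, while 5 had an unadjusted p under 0.05, beside 13.4% of all tested genes, and DESeq2 called 3, beside 3.17%. Small MAF proteins are the obligate partners of NRF2, and of their genes Mafg and Maff came nearest. Mafk, also listed, was not among the 3 genes of the list with the smallest adjusted p. Mafg was at 85.8, 91.3 and 78.5 CPM in FXR-WT 1, 2 and 3 and at 36.1, 55.5 and 35.9 CPM in Y67F-FXR 1, 2 and 3, without overlap, and its log2 fold change of -1.003 had a standard error of 0.19 and an adjusted p of 0.0607 (edgeR quasi-likelihood, Benjamini-Hochberg). Mafg is itself a known FXR target and was listed there too.

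Maff was lower in each Y67F-FXR liver, at 4.47 to 5.01 CPM against 7.82 to 10.6 CPM, with an adjusted p of 0.0635 (edgeR quasi-likelihood, Benjamini-Hochberg). Syvn1, the ubiquitin ligase of the endoplasmic reticulum also called HRD1, had a log2 fold change of -0.94 and an adjusted p of 0.0844 in that test. Its exons share bases with Mrpl49, so its value is uncertain.

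For glutathione, 13 of 15 listed genes beside Gclc and Gclm were tested; edgeR called 0, 4 had an unadjusted p under 0.05 (beside 13.4% of all tested genes) and DESeq2 called 1 (beside 3.17%). Chac1, which degrades glutathione and rises with endoplasmic reticulum stress, was at 6.70, 2.33 and 3.54 CPM in FXR-WT 1, 2 and 3 and at 0.972, 1.15 and 1.00 CPM in Y67F-FXR 1, 2 and 3. Its log2 fold change of -2.005 had a standard error of 0.41 and an adjusted p of 0.0768 (edgeR quasi-likelihood, Benjamini-Hochberg). Ggct had a log2 fold change of -0.54, and Oplah, the oxoprolinase, one of 0.53, although Oplah shares exon bases with Gm10345. Neither was called. Without FXR-WT 1 the value of Ggct was -0.34. The median of the list was 0.16.

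NADPH, the reducing power used by glutathione and thioredoxin reductases, was represented by 7 tested genes, of which edgeR called 0, 1 had an unadjusted p under 0.05 (beside 13.4%) and DESeq2 called 0. Tkt at 0.30, G6pdx at -0.48 and Me1 at 0.30 on the log2 fold change scale had the smallest adjusted p-values of that list, and Tkt and Me1 share exon bases with Mir3076 and A330041J22Rik. Without FXR-WT 1, G6pdx stood at -0.31 and Me1 at 0.16. Among 15 thioredoxin, peroxiredoxin and related genes edgeR and DESeq2 called 0 each and 1 had an unadjusted p under 0.05, again beside 13.4%. Sesn2, a stress-induced sestrin, stood at 0.86 and Sod1, the cytosolic superoxide dismutase, at 0.25 on that scale, and Sod1 stood at 0.10 without Y67F-FXR 2 and 0.16 without FXR-WT 3.

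The heme list held the 1 NRF2-linked gene that was called. Alas1, which makes the first committed step of heme synthesis in liver, rose from 792, 860.0 and 722.5 CPM in FXR-WT 1, 2 and 3 to 1377, 1329 and 1531 CPM in Y67F-FXR 1, 2 and 3. The groups did not overlap, and the log2 fold change of 0.84 had a standard error of 0.13 and an adjusted p of 0.0333 (edgeR quasi-likelihood, Benjamini-Hochberg). The value was 0.77 to 0.90 when any 1 of the 6 livers was left out, and Alas1 was called in none of those 6 fits. Abcb6, a porphyrin transporter, at 0.34 and Blvrb, a biliverdin reductase, at 0.31 on the log2 fold change scale were not called, and 3 of the 9 tested genes had an unadjusted p under 0.05, beside 13.4% of all tested genes. Without Y67F-FXR 2, Blvrb stood at 0.19. Hmox1, which degrades heme, stood at -0.02 on the same scale.

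Of 15 genes for conjugation, reduction and export, edgeR called 0, 3 had an unadjusted p under 0.05 (beside 13.4% of all tested genes) and DESeq2 called 1 (beside 3.17%). Abcc3, an export pump for bile acid and drug conjugates, was at 198, 287 and 278 CPM in FXR-WT 1, 2 and 3 and at 410.1, 340.2 and 415 CPM in Y67F-FXR 1, 2 and 3, without overlap. Its log2 fold change was 0.61 with an adjusted p of 0.164 (edgeR quasi-likelihood, Benjamini-Hochberg). Aox1, aldehyde oxidase, had a log2 fold change of -0.63 and Cyp2a5, a cytochrome P450 inducible by liver stress, one of 0.56, both with overlapping groups, and Aox1 stood at -0.39 without FXR-WT 3. Osgin2, the paralog of Osgin1, was at 0.970 to 2.15 CPM in FXR-WT and 1.05 to 1.41 CPM in Y67F-FXR, with a log2 fold change of -0.41 and an adjusted p of 0.694 (edgeR quasi-likelihood, Benjamini-Hochberg). That fold change was -0.16 without FXR-WT 1 and -0.66 without FXR-WT 2.

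Because Osgin1 is known to respond to bile acids, it was also set beside 15 hepatic FXR targets, of which 14 were tested. Of these, edgeR called 2 lower and 0 higher, beside 0.426% and 0.546% of all tested genes. At an unadjusted p under 0.05, reached by 13.4% of all tested genes, there were 8, all of them lower, and DESeq2 called 5, beside 3.17% of the genes to which it gave an adjusted p. The median log2 fold change was -0.39, against -0.24 for the 7 NRF2 targets and -1.92 for Osgin1 itself. The groups did not overlap for 9 of the 14, beside 20.6% of all tested genes.

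Kdm1a was at 45.03, 44.4 and 41.9 CPM in FXR-WT 1, 2 and 3 and at 12.1, 13.5 and 13.1 CPM in Y67F-FXR 1, 2 and 3, far apart and with little spread. It fell by 1.76 on the log2 scale, with an adjusted p of 0.00148 (edgeR quasi-likelihood, Benjamini-Hochberg), and stayed called whichever liver was left out. Scarb1, the hepatic receptor for high-density lipoprotein, fell from 266 to 295 CPM in FXR-WT to 168 to 185 CPM in Y67F-FXR. With -0.66 on that scale and 0.0429 as its adjusted p (edgeR quasi-likelihood, Benjamini-Hochberg), it was called by the rule, but in none of the 6 fits that left out 1 liver. The list was chosen with earlier results of these data known, so its direction is not independent evidence.

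**Figure D5:**
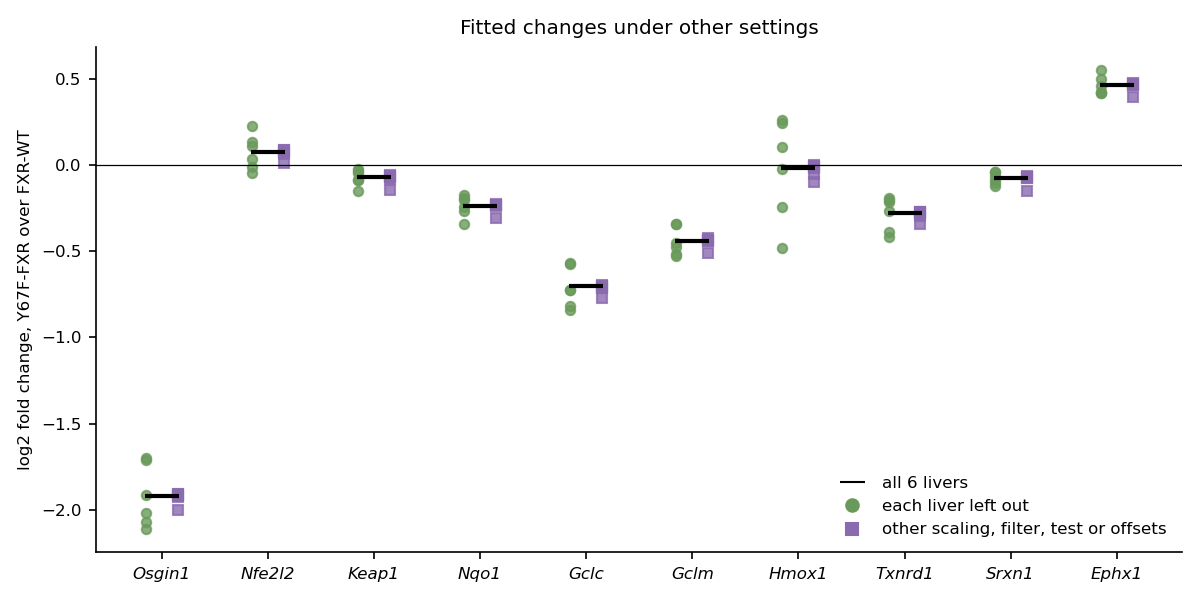
Fitted log2 fold change of each of the 10 genes with all 6 livers (black), with each liver left out in turn (green circles) and with other scaling, filter, test or offsets (purple squares). Osgin1 stays between -2.11 and -1.70 and Ephx1 between 0.39 and 0.55, while Hmox1 and Nfe2l2 cross 0 when a liver is left out.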

How the data were processed

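Per the labels and the study's methods, total liver RNA was made into 1 paired-end mRNA library per liver. Per the file headers, the deposited values are raw read counts per gene, made by the authors with featureCounts 1.4.6-p4 on mm9 exons, without strand and with the reads of a pair counted singly; reads falling on several genes or places were left out. The submitters' processing notes name bcl2fastq 2.17.1.14, Trimmomatic 0.36, FastQC 0.11.5, STAR 2.5.3a and edgeR. A deposited table of the authors' own log2 fold changes, log2 CPM and p-values was not used.

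Counts were filtered with filterByExpr, scaled by TMM and fitted by group with edgeR 4.0.16 (glmQLFit, glmQLFTest; R 4.3.3), with Benjamini-Hochberg adjustment over 12453 genes. DESeq2 1.42.0 was an alternative. Log2 CPM used a prior count of 2. The scripts were tested on simulated counts with 200 changed genes. There, 4.455% of the calls by edgeR and 12.33% of those by DESeq2 were false. The members and lists were chosen with earlier results of these data known. Beside the 10 members, the text names every called gene of a list, the 3 with the smallest adjusted p in each list, and the 5 genes most like Osgin1, except for results not reported here. Other scaling, filters, tests, gene length offsets, a replicate block and fits without each liver were tried. The labels number the livers within a group, and p-values set the difference between the groups against the spread between these livers. Promoter sequences came from RefSeq (GRCm38.p6), and gene positions from the count files (mm9).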

Additional observations from a re-analysis of the deposited data

How the results depend on the processing

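With 3 livers a group, the number of calls depended on the fit. Over the whole table, 121 genes were called, against 420 with DESeq2, 247 with gene length offsets, 783 at an unadjusted p with the same fold minimum and 9 to 66 when 1 liver was left out, with 9 without FXR-WT 3. Of the 10 members 1 was called, against 2 with DESeq2, gene length offsets or an unadjusted p, each time Osgin1 and Gclc, and 0 to 1 with 1 liver left out. Of 86 tested pathway list genes 3 were called, against 7 without a filter on low counts, 10 with DESeq2, 8 with gene length offsets, 13 at an unadjusted p and 1 to 3 with 1 liver left out: 1 without FXR-WT 3, without Y67F-FXR 1 or without Y67F-FXR 3. The cause of these shifts was not tested.

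The replicate block, a fit with the replicate number as a term, called 8 genes of the whole table, 0 of the members and 1 pathway gene, Kdm1a. The labels do not say that equal numbers mark a shared cage or day. Deviations of same-numbered livers correlated at -0.52, -0.08 and 0.12, and not every liver correlated best with its own number. Other pairs stood higher, at 0.54 for FXR-WT 1 with Y67F-FXR 2 and 0.58 for FXR-WT 3 with Y67F-FXR 1. The deviations within a group sum to 0 and so are tied to one another. These values therefore cannot show whether equal numbers mark a pairing.

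Among 455 log2 fold changes of 35 named genes, 397 kept their direction and side of the threshold, 38 lost the call, 15 gained one and 5 changed sign. These were Nfe2l2 without FXR-WT 1 (-0.01) and without Y67F-FXR 1 (-0.0502), and Hmox1 without FXR-WT 1 (0.26), without Y67F-FXR 1 (0.24) and without Y67F-FXR 3 (0.10). Over all fits that left out 1 liver, Nfe2l2 ran from -0.0502 to 0.22 and Hmox1 from -0.48 to 0.26. The difference of -1.73 between Osgin1 and the target mean kept its direction in every alternative tried for it, from -1.97 to -1.48. These were other scaling, gene length offsets, another prior count, the median of the targets and leaving out each liver. Osgin2 and Chac1 had the lowest mean levels of the named genes, so few reads stand behind their values.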
